A study of Saccharomyces cerevisiae with 12 samples.

Results

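The 10 genes described here encode the enzymes that make glutathione, reduce it and use it in budding yeast: GSH1 and GSH2 for synthesis, GLR1 for reduction, the dithiol glutaredoxins GRX1 and GRX2, the monothiol glutaredoxins GRX3, GRX4 and GRX5, and the glutathione transferases GTT1 and GTT2. They were chosen by name and function, with earlier results of these data known, out of 6645 genes in the deposited table. All 10 passed the filter on low values and were among the 4776 genes that were tested. The 12 libraries form groups of 3, which are oxidized cells at 72 hr, reduced cells at 72 hr, oxidized cells at 48 hr and reduced cells at 48 hr. All cells were haploid BY4741 yeast, described in the study's methods as MATα leu2Δ3 his3Δ1 met15Δ0 ura3-0, and all carried a plasmid for Grx1-roGFP2, a fluorescent sensor of the cytosolic glutathione redox state whose glutaredoxin is human and is not the yeast gene GRX1. The cultures grew without added oxidant in minimal medium with casein amino acids, dead cells were gated out, and the living cells were sorted by the sensor's fluorescence ratio, with the sort repeated for each replicate. The 3′ ends of polyadenylated RNA were then sequenced.

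Glutathione is made in a pair of steps, with Gsh1 joining glutamate to cysteine and Gsh2 adding glycine. Oxidized glutathione is returned to its reduced form by Glr1 at the expense of NADPH, and dithiol glutaredoxins use reduced glutathione to reduce disulfides and mixed disulfides of proteins. Monothiol glutaredoxins mainly serve iron-sulfur clusters and iron sensing, and the transferases conjugate glutathione to other molecules. The sensor used for the sort reads the same pool, so the comparison asks how the transcripts of this system differed between cells sorted by its oxidation.

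The libraries held 90403 to 241084 reads after removal of duplicates, with 138631 to 169638 in oxidized cells at 72 hr, 141471 to 201379 in reduced cells at 72 hr, 90403 to 189735 in oxidized cells at 48 hr and 119178 to 241084 in reduced cells at 48 hr. Levels are given in PPM, reads of a gene scaled to all reads of its library, and 1 read was worth 4.15 to 11.1 PPM. Each gene was counted over a window of the same length around its transcription end, so that levels of different genes were not scaled by gene length. MET17, the gene deleted as met15Δ0, was at 0 in all 12 libraries. The other genes of the stated genotype had reads. HIS3 was at 158 to 265 PPM and URA3 at 1117 to 1933 PPM, and LEU2 had reads in 4 libraries. The source of these reads was not tested. The a-specific pheromone genes MFA1 and MFA2 were at 437 to 691 PPM and 379 to 569 PPM. The a-specific STE2 was at 84.3 to 227 PPM and BAR1 at 34.8 to 97.8 PPM. Of the α-specific genes MFALPHA1 was at 21.2 to 133 PPM, STE3 at 7.07 to 44.2 PPM and MFALPHA2 had reads in 1 library. The ranges of STE2 and BAR1 overlapped that of MFALPHA1. MFA1 and MFA2 lay above all α-specific genes, which is not the order of the stated mating type. The summed level of 8 stress and heat shock markers was 45291 to 48197 PPM in oxidized cells and 21035 to 26953 PPM in reduced cells at 72 hr, and of 53876 to 66314 PPM in oxidized cells and 39042 to 43406 PPM in reduced cells at 48 hr. Of the 8, 6 were called higher and 1, HSP12, lower in oxidized cells at 72 hr, and only HSP26 and HSP30 were called, both higher, at 48 hr, where the median difference was 0.11. Of all genes tested, 9.61% were called at 72 hr and 3.85% at 48 hr, in either direction. None of the 8 was at 0 throughout, and the part of these genes in the results below was not tested. The 8 markers of daughter cells summed to 1043 to 1165 PPM in oxidized cells and 714 to 1026 PPM in reduced cells at 72 hr, and to 1063 to 1281 PPM in oxidized cells and 838 to 1158 PPM in reduced cells at 48 hr. On average all 8 lay on the side of oxidized cells, 3 of them at an unadjusted limma p under 0.05, and none passed the adjusted test. Of all 4776 genes tested, 1972 lay on that side on average, and 1106 had such an unadjusted p in either direction.

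Among the 10 genes, GRX1 was higher and GTT1 was lower in oxidized cells. Averaged over both ages, GRX1 rose 1.37-fold (log2 difference 0.45, SE 0.11, limma with Benjamini-Hochberg adjusted p = 0.0033 over all genes tested) and GTT1 fell to 0.68 of its level in reduced cells (log2 difference -0.55, SE 0.14, limma adjusted p = 0.0029, 6 libraries against 6 for both genes). All differences are on the scale of log2(PPM + 10), oxidized minus reduced, and understate the change of low genes. In such bulk RNA a higher level in each cell and a larger share of cells with the transcript cannot be told apart. These were 2 of 10 genes past the threshold of 0.05, and 11.9% of all genes tested passed it. At 72 hr only GTT1 of the 10 passed, against 9.61% of all genes, and at 48 hr only GRX1 passed, against 3.85% of all genes. The median difference of the 10 genes was 0.02 on average over ages, 0.10 at 72 hr and -0.16 at 48 hr, and that of all genes tested was -0.08, -0.11 and -0.07 in the same order. Glutathione synthesis and its reductase gave no call in any comparison.

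**Figure D1:**
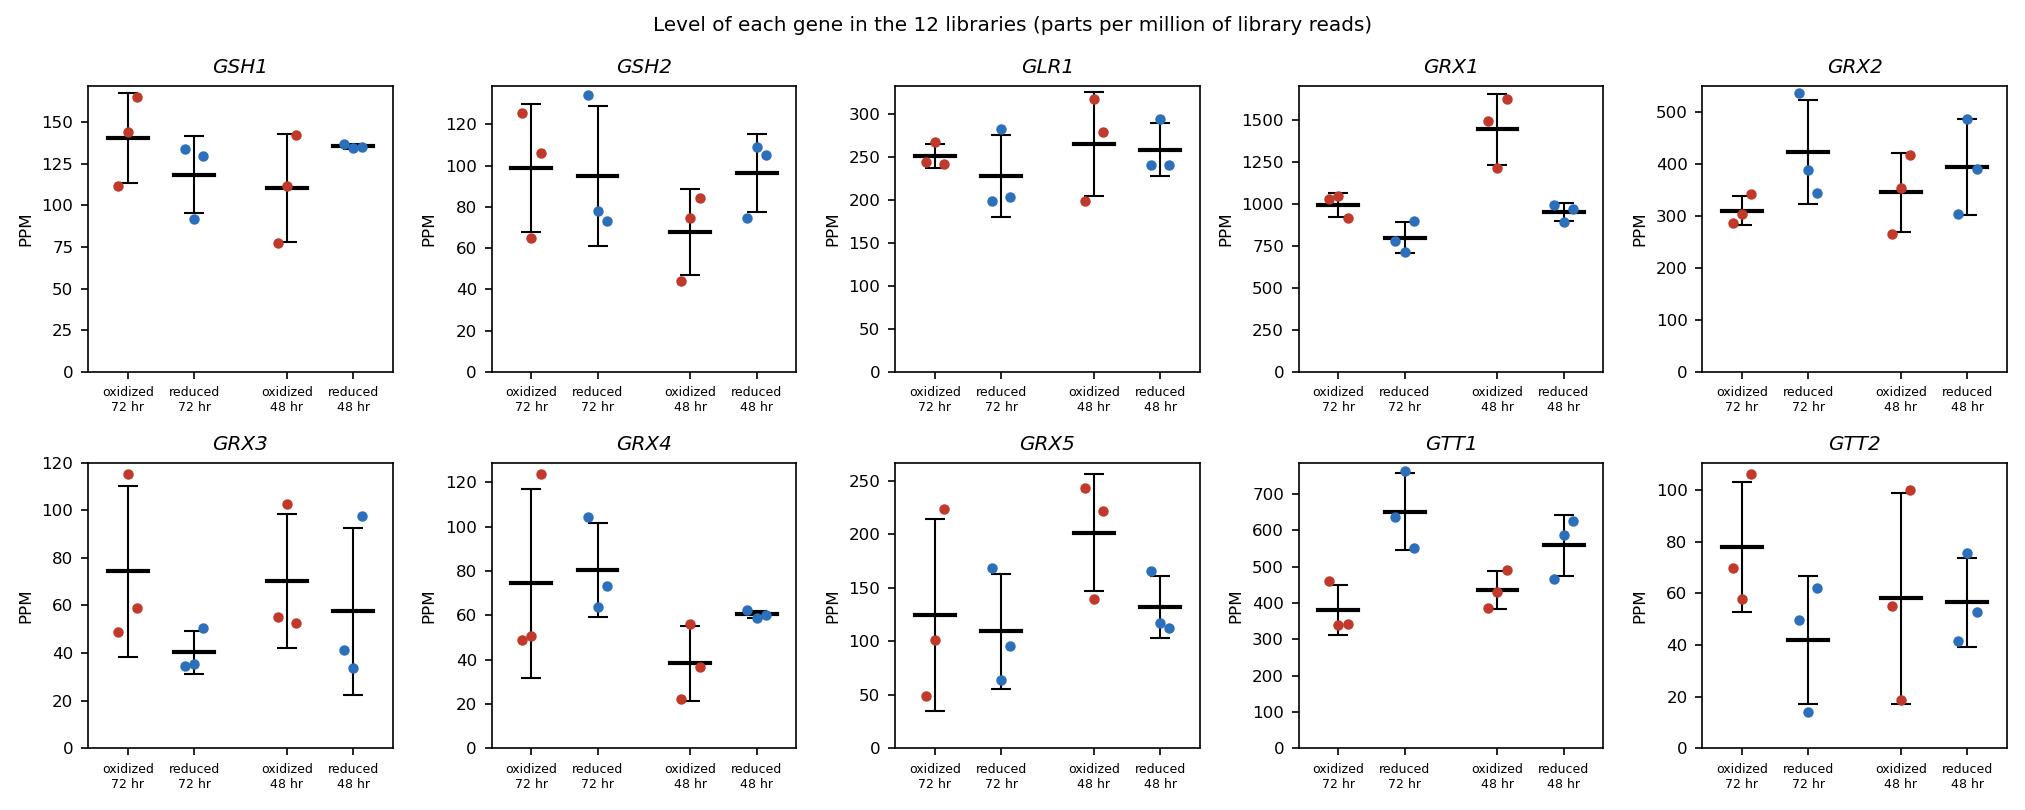
Level of each of the 10 genes in PPM (vertical axes, from 0) in the 3 libraries of each group, with oxidized cells in red and reduced cells in blue. Points are libraries, the horizontal line is the mean and the bar is 1 SD; GRX1 was the only one of the 10 whose oxidized and reduced libraries did not overlap at both ages.

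**Figure D2:**
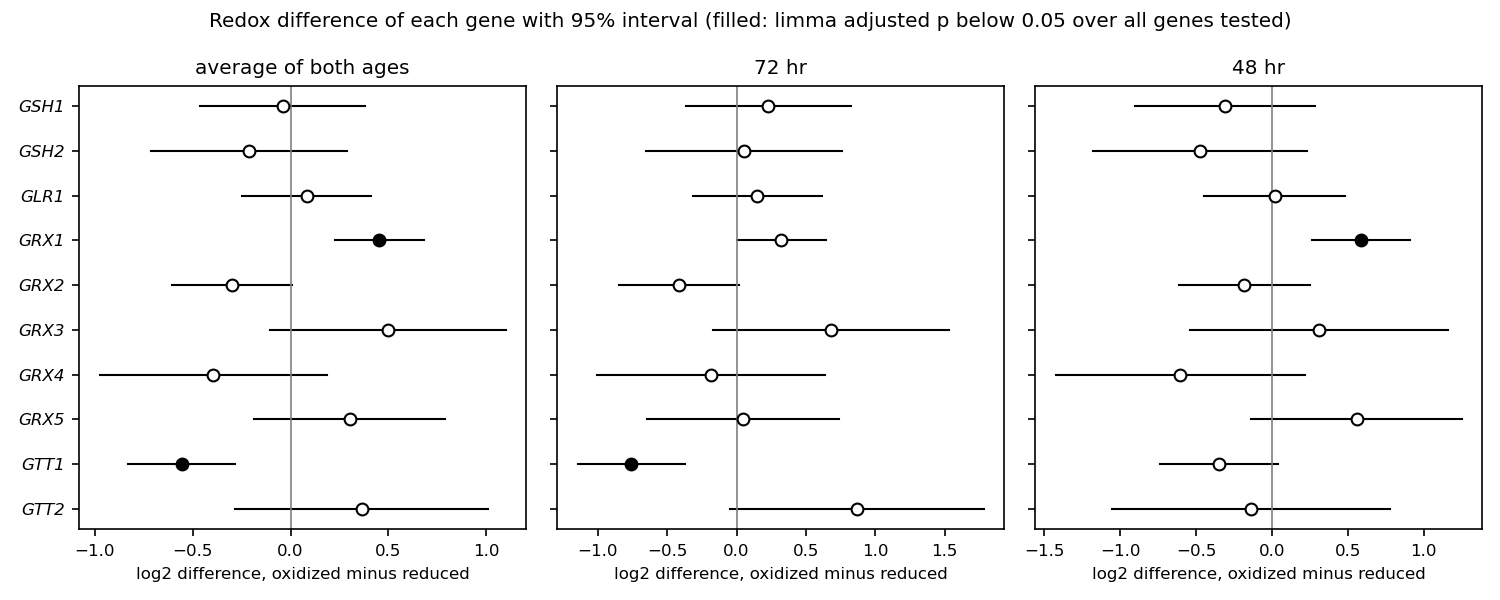
Difference of each gene between oxidized and reduced cells (horizontal axes, log2(PPM + 10), oxidized minus reduced) with its 95% interval, averaged over ages and at each age. Filled points passed the limma adjusted p of 0.05, which were GRX1 and GTT1 on average, GTT1 at 72 hr and GRX1 at 48 hr.

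Sequences before the start codon of 7 of the genes are shown because 4 short motifs of stress and sulfur regulation were found in them and because they set GRX1 and GTT1, the genes that differed, beside the rest. The motifs searched on both strands in the 500 bases before the start codon were TTACTAA, bound by Yap1, the main regulator of the response to peroxides and diamide; TTAGTCA, the form of that site known from GSH1; AGGGG, the stress response element of Msn2 and Msn4; and TCACGTG, the core of the site of Cbf1, a regulator of sulfur genes, with 1 flanking base. Bases of a match are in capitals, on the strand of the gene, with the sequence and positions from the RefSeq copy of the R64 genome, the build named sacCer3 in the deposited processing.
GSH1, chrX:236705-236752, minus strand: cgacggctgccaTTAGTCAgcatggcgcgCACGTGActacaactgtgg
GLR1, chrXVI:375299-375329, plus strand: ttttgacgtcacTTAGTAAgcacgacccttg
GRX1, chrIII:61320-61369, minus strand: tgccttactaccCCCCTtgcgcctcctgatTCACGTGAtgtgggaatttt
GRX2, chrIV:1470861-1470923, plus strand: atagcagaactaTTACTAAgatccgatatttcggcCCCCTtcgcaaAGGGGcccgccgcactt
GRX4, chrV:539410-539440, minus strand: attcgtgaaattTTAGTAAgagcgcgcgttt
GTT1, chrIX:424611-424766, minus strand: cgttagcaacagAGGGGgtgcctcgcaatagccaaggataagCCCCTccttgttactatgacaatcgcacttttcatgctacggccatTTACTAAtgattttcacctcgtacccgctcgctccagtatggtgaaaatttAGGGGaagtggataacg
GTT2, chrXII:21919-21949, minus strand: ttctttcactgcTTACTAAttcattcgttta

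TTACTAA or its complement stood before 5 of the 10 genes, GLR1, GRX2, GRX4, GTT1 and GTT2, and before 11.8% of 5887 yeast genes. TTAGTCA stood before GSH1 alone of the 10, and before 6.01% of all genes. AGGGG stood before GRX1, GRX2 and GTT1, with 3 matches in GTT1, and before 34.4% of all genes. TCACGTG stood before GSH1 and GRX1, and before 4.62% of all genes; in GRX1 the site reads the same on both strands. GSH2, GRX3 and GRX5 held none of these letters in this window. GRX1 and GTT1, which moved in opposite directions, thus both held AGGGG, whereas TTACTAA was found before GTT1 and not before GRX1. A match is a run of letters and was not tested as a binding site.

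**Figure D3:**
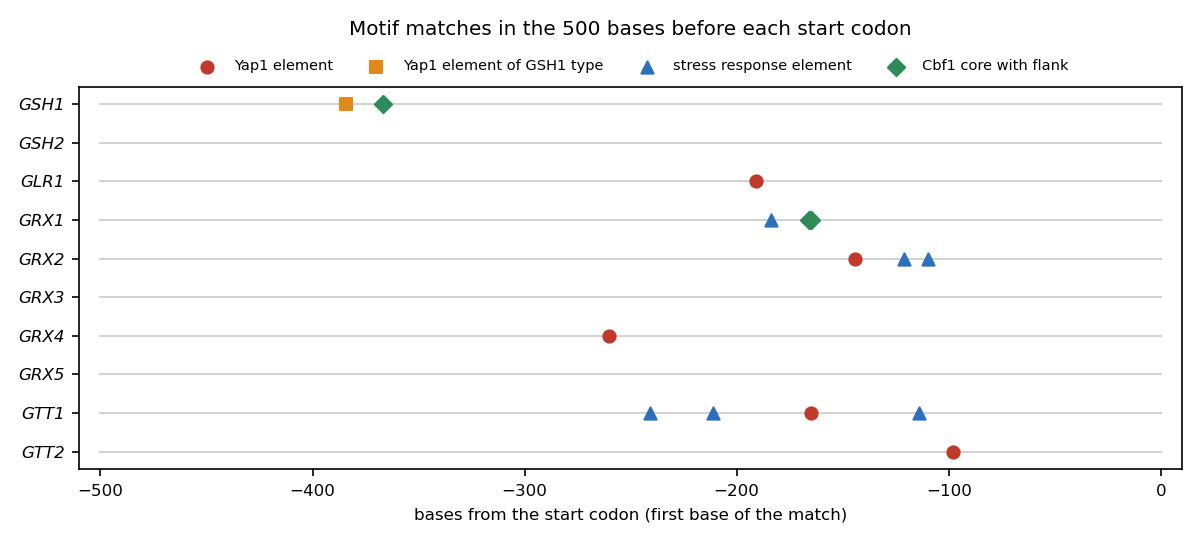
First base of each motif match (horizontal axis, bases from the start codon) before each of the 10 genes, with 1 symbol for each motif. GTT1 holds 4 matches between 241 and 114 bases before its start codon, and GSH2, GRX3 and GRX5 hold none.

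GRX1 (YCL035C, chrIII:60841-61173, minus strand), a cytosolic dithiol glutaredoxin, was the most abundant transcript of the 10 per counting window, with a mean of 1047 PPM and 1912 reads over the 12 libraries. At 72 hr it had 1026, 1046 and 914 PPM in oxidized cells, against 780, 714 and 896 PPM in reduced cells. At 48 hr it had 1493, 1212 and 1623 PPM in oxidized cells, against 995, 889 and 970 PPM in reduced cells. Every oxidized library lay above every reduced library of its age, although the lowest oxidized and the highest reduced library at 72 hr were close. Of all genes tested, 6.89% had no overlap at both ages in the same direction, as 1 of the 10 genes had. The difference at 48 hr was 1.50-fold (log2 difference 0.59, SE 0.16, limma adjusted p = 0.023), and that at 72 hr was 0.32 (SE 0.16), with a limma adjusted p of 0.24. The 2 differences were not distinguishable, with an interaction of -0.27 (SE 0.23, limma adjusted p = 0.79).

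From the highest mean to the lowest, GRX1 was at 1443 ± 210.3 PPM in oxidized cells at 48 hr, 995 ± 71.2 PPM in oxidized cells at 72 hr, 952 ± 55.4 PPM in reduced cells at 48 hr and 796 ± 92.2 PPM in reduced cells at 72 hr (SD, n = 3 each). Oxidized cells at 48 hr stood above all others, and each of the following neighbours in this order overlapped. The call at 48 hr was lost when any one of 5 of the 6 libraries of that age was left out. Without oxidized replicate 1 or 3 the limma adjusted p was 0.078 and 0.12, and without reduced replicate 1, 2 or 3 it was 0.057, 0.12 and 0.062, whereas the average over ages passed in all 18 alternatives that were run. The counting window of GRX1 shared 286 bases with that of GFD2 on the opposite strand, and the use of strand in counting is not stated in the sources used here. GFD2 averaged 47.4 PPM in the 12 libraries, far below GRX1.

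GRX2 (YDR513W, chrIV:1471017-1471448, plus strand), the other dithiol glutaredoxin, is found in cytosol and mitochondria. At 72 hr it had 286, 303 and 342 PPM in oxidized cells, against 536, 389 and 344 PPM in reduced cells. In oxidized cells at 48 hr it had 265, 354 and 416 PPM, against 303, 487 and 391 PPM in reduced cells. At 72 hr the groups did not overlap, by a margin of less than the value of 1 read, and at 48 hr they overlapped widely. The averaged difference was -0.30 (95% interval -0.60 to 0.01) with a limma adjusted p of 0.24. The window of GRX2 shared 301 bases with that of YDR514C on the opposite strand, which averaged 33.7 PPM.

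The dithiol pair thus stood on opposite sides of 0, and their ratio within a library does not depend on how libraries are scaled. GRX1 was 3.59, 3.45 and 2.67 times GRX2 in oxidized cells at 72 hr, against 1.45, 1.84 and 2.61 times in reduced cells. It was 5.63, 3.42 and 3.90 times GRX2 in oxidized cells at 48 hr, against 3.29, 1.83 and 2.48 times in reduced cells. The ratio was higher in every oxidized library than in every reduced library of its age. The log2 ratio, taken with 10 PPM added to each gene, differed by 0.73 at 72 hr, 0.77 at 48 hr and 0.75 on average (exact two-sided permutation test within ages, p = 0.005, the smallest that 400 arrangements can give, and adjusted p = 0.02 over 4 ratios). The ratios were chosen after the levels had been seen, and GRX1 alone already separated oxidized from reduced libraries at both ages. The p of this ratio is therefore not separate support for a difference of GRX2. The adjusted exact p was 0.06 without oxidized replicate 1 or 2 at 72 hr, oxidized replicate 1 or 3 at 48 hr, or reduced replicate 2 at 48 hr, and the difference then stayed between 0.65 and 0.78. The longest run of bases shared by the windows of GRX1 and GRX2 was 12.

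**Figure D4:**
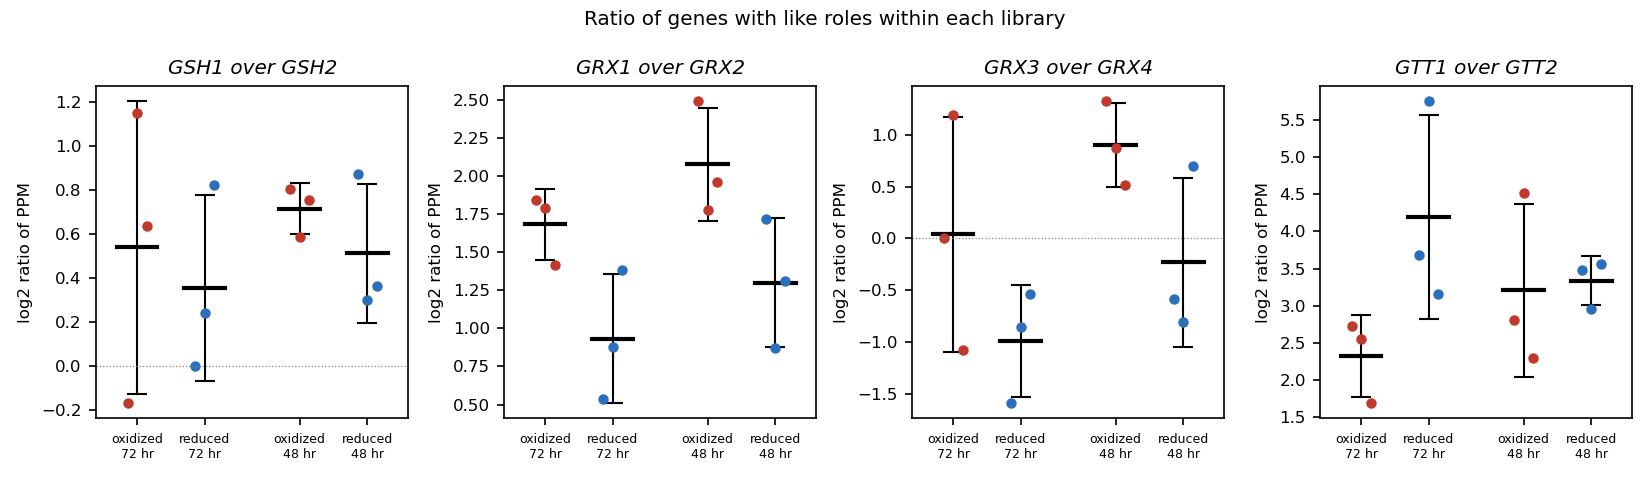
Log2 ratio of PPM of genes with like roles (vertical axes) in each library, with the mean and 1 SD of each group. For GRX1 over GRX2 the oxidized libraries lie above the reduced libraries at 72 hr and at 48 hr, and for the other ratios the groups overlap at 1 age or both.

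GTT1 (YIR038C, chrIX:423809-424513, minus strand), a glutathione transferase of the endoplasmic reticulum, had the next highest mean, 506 PPM. At 72 hr it had 460, 339 and 342 PPM in oxidized cells, against 636, 763 and 552 PPM in reduced cells. The levels at 48 hr were 387, 429 and 490 PPM in oxidized cells, against 465, 587 and 624 PPM in reduced cells. At 72 hr every oxidized library lay below every reduced one, and at 48 hr the highest oxidized library lay above the lowest reduced one. Libraries of 3 of the 10 genes, GRX1, GRX2 and GTT1, did not overlap at 72 hr, against 26.0% of all genes tested. The difference at 72 hr was -0.76 (SE 0.19, limma adjusted p = 0.0045), a level 0.59 of that in reduced cells. At 48 hr it was -0.35 (SE 0.19, limma adjusted p = 0.42), and the interaction of -0.41 (SE 0.27, limma adjusted p = 0.72) did not separate the ages.

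The call of GTT1 at 72 hr was lost without reduced replicate 2, its highest library (-0.64, limma adjusted p = 0.058). The average over ages passed in all 18 alternatives. From the lowest mean to the highest, GTT1 was at 380.5 ± 69.3 PPM in oxidized cells at 72 hr, 435 ± 51.8 PPM in oxidized cells at 48 hr, 559 ± 83.6 PPM in reduced cells at 48 hr and 650.4 ± 106 PPM in reduced cells at 72 hr (SD, n = 3 each), and each pair of neighbours in this order overlapped. Its window shared 211 bases with that of HYR1, which runs towards it on the opposite strand and encodes the peroxidase that activates Yap1. HYR1 averaged 392.4 PPM, and its own difference was -0.14 at 72 hr and 0.11 at 48 hr, neither past the threshold. Reads near the end of GTT1 cannot be told apart from those of HYR1 if strand was not used.

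GTT2 (YLL060C, chrXII:21138-21839, minus strand), the other transferase, was near the limit of the depth, with 111 reads in all. It had 69.8, 57.7 and 106 PPM in oxidized cells at 72 hr, against 49.7, 14.1 and 62.0 PPM in reduced cells, where the lowest value stands for 2 reads. In oxidized cells at 48 hr it had 55.3, 18.6 and 100.1 PPM, against 41.5, 75.5 and 52.6 PPM in reduced cells. The groups overlapped at both ages, and the averaged difference was 0.36 (95% interval -0.28 to 1.01, limma adjusted p = 0.55). The ratio of GTT1 to GTT2 differed by -1.63 on the log2 scale at 72 hr, without overlap, by -0.21 at 48 hr, with overlap, and by -0.92 on average (exact permutation test, adjusted p = 0.10 over 4 ratios, and 0.03 without oxidized replicate 2 at 48 hr).

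Neither gene of synthesis passed the test. GSH1 (YJL101C, chrX:234320-236356, minus strand), which encodes the rate-limiting enzyme, had 112, 144 and 165 PPM in oxidized cells and 134, 91.9 and 130 PPM in reduced cells at 72 hr. Its levels at 48 hr were 77.4, 112 and 142 PPM in oxidized cells and 137, 134 and 135 PPM in reduced cells. The groups overlapped at both ages, and the averaged difference was -0.04 with a 95% interval of -0.46 to 0.38 (limma adjusted p = 0.95). Under median-of-ratios scaling, which divides each library by a size factor over all genes, the sign turned (0.027). GSH2 (YOL049W, chrXV:238619-240094, plus strand) was at 64.9 to 126 PPM in oxidized cells and 73.3 to 134 PPM in reduced cells at 72 hr, and at 44.2 to 84.3 PPM in oxidized cells and 74.7 to 109 PPM in reduced cells at 48 hr. Its averaged difference was -0.21 (95% interval -0.71 to 0.29, limma adjusted p = 0.68).

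The window of GSH2 shared 291 bases with that of RRT8 on the opposite strand, and RRT8 was itself lower in oxidized cells on average (-0.77, limma adjusted p = 0.0044), so reads near the end of GSH2 cannot be told apart from those of RRT8 if strand was not used. The ratio of GSH1 to GSH2 differed by 0.17 on the log2 scale (exact permutation test, adjusted p = 0.45 over 4 ratios).

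GLR1 (YPL091W, chrXVI:375502-376953, plus strand), which encodes glutathione reductase, was the steadiest of the 10, with a highest library 1.60 times its lowest. At 72 hr it had 244, 267 and 242 PPM in oxidized cells, against 199, 283 and 203 PPM in reduced cells. The oxidized libraries at 48 hr had 199, 317 and 279 PPM, against 241, 294 and 241 PPM in the reduced ones. The reduced libraries at 72 hr spanned the oxidized ones, and the averaged difference of 0.08 had a 95% interval of -0.25 to 0.41 (limma adjusted p = 0.83). Its window shared 63 bases with that of RPS6A, a ribosomal protein gene at 582 PPM.

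The 3 monothiol glutaredoxins were low and spread widely between replicates. GRX3 (YDR098C, chrIV:644178-644930, minus strand) and GRX4 (YER174C, chrV:538434-539168, minus strand) encode the cytosolic and nuclear pair that act on the iron regulator Aft1. GRX3 had 48.8, 115 and 58.9 PPM in oxidized cells and 34.8, 35.3 and 50.7 PPM in reduced cells at 72 hr, and 55.3, 103 and 52.7 PPM in oxidized cells and 41.5, 33.6 and 97.8 PPM in reduced cells at 48 hr. One library was high in each group but reduced cells at 72 hr, and the averaged difference was 0.50 (95% interval -0.10 to 1.10, limma adjusted p = 0.34). GRX4 was at 48.8 to 124 PPM in oxidized cells and 63.6 to 104 PPM in reduced cells at 72 hr. At 48 hr it had 22.1, 55.9 and 36.9 PPM in oxidized cells, all below the 62.2, 58.7 and 60.2 PPM in reduced cells. At 48 hr GRX1 and GRX4 were the 2 of 10 genes without overlap, against 17.5% of all genes. The averaged difference of GRX4 was -0.39 (95% interval -0.97 to 0.19, limma adjusted p = 0.46). Its window shared 246 bases with that of RAD24 on the opposite strand, which averaged 21.8 PPM. RAD24 differed by -0.66 at 48 hr (limma adjusted p = 0.67), the same direction as GRX4. Reads near the end of GRX4 cannot be told apart from those of RAD24 if strand was not used.

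The GRX3 to GRX4 ratio differed by 0.89 on the log2 scale, with an adjusted exact permutation p of 0.10 over 4 ratios, and that p was 0.03 without oxidized replicate 3 at 72 hr and above 0.05 in the other alternatives. The longest run shared by their windows was 21 bases. GRX5 (YPL059W, chrXVI:444579-445031, plus strand), the mitochondrial glutaredoxin of iron-sulfur assembly, had 48.8, 101 and 224 PPM in oxidized cells and 169, 63.6 and 95.8 PPM in reduced cells at 72 hr. It had 243, 140 and 221 PPM in oxidized cells and 166, 117 and 113 PPM in reduced cells at 48 hr. The oxidized libraries at 72 hr covered the whole range of the reduced ones, and the averaged difference was 0.30 (95% interval -0.19 to 0.79, limma adjusted p = 0.51).

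None of the 10 genes passed in either comparison of ages or in the interaction (limma adjusted p above 0.05), where 0.44% of all genes passed in oxidized cells, 2.32% in reduced cells and 0.775% in the interaction. At an unadjusted p under 0.05, 2 of the 10 were lower at 72 hr than at 48 hr in oxidized cells, and 0 were found in reduced cells and 0 in the interaction, against 9.9%, 12.0% and 9.0% of all genes tested in the same order. The 2 were GRX1, which was -0.52 (limma adjusted p = 0.15) with every library at 72 hr below every library at 48 hr, and GRX5, which was -0.84 (limma adjusted p = 0.36) with overlapping libraries. GRX1 was the 1 of the 10 without overlap between the ages of oxidized cells, against 14.2% of all genes. In reduced cells GSH1, lower at 72 hr, and GRX4, higher at 72 hr, did not overlap between the ages, against 17.9% of all genes, and neither passed the test. These comparisons use the same libraries as the redox comparisons.

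The genes most like GRX1 over the 12 libraries were CPA1, YGR182C and HXT7, with Pearson r of 0.92, 0.91 and 0.90 in log2(PPM + 10). CPA1 encodes a subunit of carbamoyl phosphate synthetase and HXT7 a high-affinity glucose transporter. Those most like GTT1 were DMC1, FMP16 and YML133C, with r of 0.94, 0.89 and 0.89. The nearest of the other 9 genes was GRX5 for GRX1 (r = 0.51) and GRX2 for GTT1 (r = 0.65). The libraries differ in depth and group, which all these genes share.

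Among the genes that break glutathione down, GCG1 and DUG3 differed between the sorted cells. Of 10 genes of glutathione degradation and transport, 8 were tested, of which 2 rose at 72 hr, 1 rose and 1 fell at 48 hr, and 1 rose on average, against 9.61%, 3.85% and 11.9% of all genes called in either direction. GCG1 (YER163C), whose product splits glutathione inside the cell, had 265, 245 and 218 PPM in oxidized cells at 72 hr, against 179, 120 and 135 PPM in reduced cells. At 48 hr oxidized cells had 144, 131 and 174 PPM, against 353, 378 and 331 PPM in reduced cells. The order of oxidized and reduced cells was thus opposite at the 2 ages, with no overlap at either. Of all genes tested, 26.0% had no overlap at 72 hr and 17.5% had none at 48 hr. The difference was 0.72 (SE 0.24, limma adjusted p = 0.045) at 72 hr and -1.20 (SE 0.24, limma adjusted p = 0.00066) at 48 hr, and the interaction was 1.92 (SE 0.34, limma adjusted p = 0.00070).

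The interaction and the difference of GCG1 at 48 hr passed in every alternative run. Its difference at 72 hr passed in 10 of 19, and was lost without oxidized replicate 1, 2 or 3 or reduced replicate 2 or 3 of that age or any reduced library at 48 hr, with an adjusted p of 0.054 to 0.19, and with the replicate block (0.051). DUG3, part of the cytosolic complex that degrades glutathione, had 370, 389 and 360 PPM in oxidized cells at 72 hr, against 238, 191 and 180 PPM in reduced cells. At 48 hr it had 277, 224 and 406 PPM in oxidized cells, against 129, 185 and 113 PPM in reduced cells. DUG3 was higher in every oxidized library than in every reduced library of its age, by 0.94 on average (SE 0.17, limma adjusted p = 3.9e-05). Of all genes tested, 6.89% had no overlap at both ages in the same direction.

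**Figure D5:**
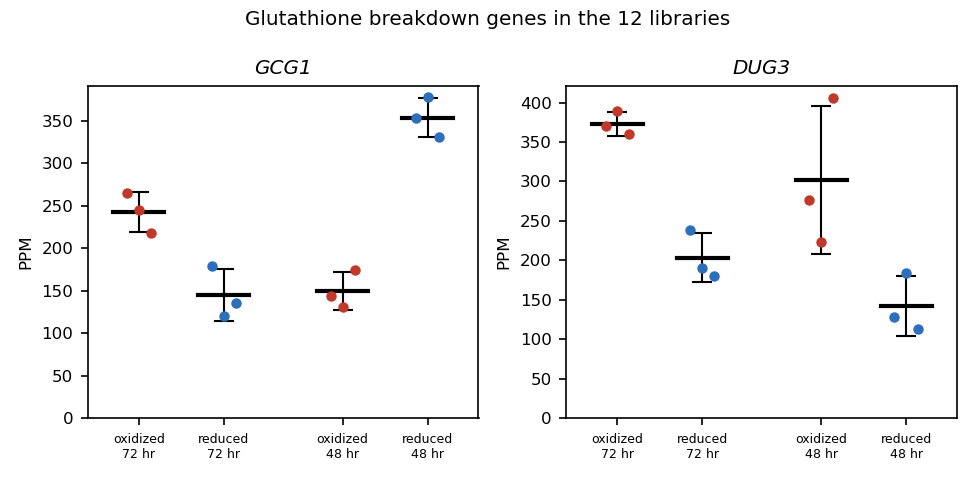
Levels of GCG1 and DUG3 in PPM (vertical axes, from 0) in the 3 libraries of each group, with the mean and 1 SD. GCG1 is higher in oxidized cells at 72 hr and lower in them at 48 hr, and DUG3 is higher in oxidized cells at both ages.

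The other genes of the system were counted from lists, and each count on average stands against the 11.9% of all genes called, 234 higher and 333 lower of 4776. Of 15 other glutaredoxins and glutathione enzymes tested, 1 rose on average in oxidized cells and 0 fell, a share below that of all genes. It was SFA1, the glutathione-dependent formaldehyde dehydrogenase (0.58, limma adjusted p = 0.014), which was at 1.14 (limma adjusted p = 0.00038) at 72 hr and 0.014 at 48 hr, with an interaction of 1.13 that did not pass (limma adjusted p = 0.13). Of 18 genes tested from the list named NADPH supply, which also holds the transketolase genes TKL1 and TKL2, 1 rose and 6 fell on average. The supply of NADPH itself was not measured. ZWF1, the glucose-6-phosphate dehydrogenase, rose by 0.55 (limma adjusted p = 0.013). IDP2, the cytosolic isocitrate dehydrogenase that makes NADPH, was at -1.85, IDP3, its peroxisomal form, at -1.13, the mitochondrial aldehyde dehydrogenase ALD4 at -0.99 and the transketolase TKL2 at -0.96 (limma adjusted p of 6.7e-12 for IDP2 to 0.00054 for TKL2). The median of the list was -0.20 against -0.08 for all genes. The averages of ZWF1 and SFA1 passed in 14 and 16 of 18 alternatives, and those of the 4 genes that fell in all 18.

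Of 19 genes of sulfur assimilation and cysteine supply, 0 rose and 2 fell on average, a share near that of all genes. They were the S-methylmethionine permease MMP1 (-0.89) and the sulfate permease SUL1 (-0.58). Of 10 regulators, MSN4 rose (0.87) and its partner MSN2 fell (-0.77), while YAP1 and the rest did not pass. Of 20 genes of iron-sulfur assembly and of partners of the monothiol glutaredoxins, FRA1, a partner of Grx3 and Grx4 in iron signalling, rose (0.55), and the mitochondrial assembly genes ISA1 (-0.79) and ISU1 (-0.50) fell, 3 genes called, which is also near the share of all genes. The limma adjusted p of these 7 genes ran from 0.0030 for ISU1 to 0.048 for SUL1. Of the 7 averages ISU1 passed in all 18 alternatives and the other 6 in 6 to 13 of them.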

How the data were processed

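The deposited values are PPM, a unit of another kind than counts in the record of units. Per the study's methods, the authors aligned reads (bcl2fastq 2.17 and Bowtie2 in the submitters' processing notes) to sacCer3, removed duplicates by molecular identifier, counted reads around each transcription end (350 bp before it and 200 bp after it) and divided them by all reads of the library. Which annotation was counted, and whether by strand, is not given in the sources used here.

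The table has 553 genes in rows split by commas, which were read as such, and YCR013C and PYC1, in 4 broken lines, were left out. All values were whole numbers of reads within 0.1 read. The deposited unit is PPM and not counts, so no count test was run on the recovered reads. Genes averaging 20 PPM or more were tested in R 4.3.3 with limma 3.58.1 (lmFit, eBayes with a trend) on log2(PPM + 10), in 1 fit with 4 group means, adjusted by Benjamini-Hochberg over 4776 genes with a threshold of 0.05. All p-values are two-sided. The fit was tested on simulated data with known changes. Window overlaps used the end of the coding sequence in the RefSeq R64 annotation, to which 5923 genes were matched and 722 were not. Python 3.11.15, with pandas 2.3.3 and matplotlib 3.10.9, served for tables and figures.

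Alternatives were pseudocounts of 1 and 50 PPM, no filter or a minimum of 50 PPM, scaling by median of ratios, omission of single libraries, a replicate block, and at each age its 6 libraries alone. All 10 genes are named. From each other list up to 4 genes a direction are named by the smallest adjusted p of the averaged difference, or at 1 age where none passed, and for each of the 10 that passed on average the 3 genes with the highest correlation, leaving out genes with overlapping windows. The genes and lists were chosen with earlier results of these data known, and the ratios after their levels were seen.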

Additional observations from a re-analysis of the deposited data

Results flagged for a closer look

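The redox difference of GCG1, the enzyme that splits glutathione in the cytosol, changed sign between the ages. At 72 hr oxidized cells had 243 ± 23.6 PPM and reduced cells 145 ± 30.4 PPM, and at 48 hr oxidized cells had 149 ± 22.2 PPM and reduced cells 354 ± 23.4 PPM (SD, n = 3 each). The difference at 72 hr minus that at 48 hr was 1.92 on the log2 scale (limma interaction, adjusted p = 0.00070), and 18 of 18 alternatives passed. The difference at 48 hr alone passed in 19 of 19 alternatives. That at 72 hr alone passed in 10 of 19, and ran from 0.60 to 0.87 in them all. In reduced cells its level at 72 hr was lower than at 48 hr by a log2 difference of -1.25 (limma adjusted p = 0.00045). In oxidized cells the age difference of GCG1 was 0.67 (limma adjusted p = 0.26) and did not pass in any of 18 alternatives. Every oxidized library at 72 hr lay above every one at 48 hr, and 14.2% of all genes did not overlap in this comparison. None of the 10 genes described above had an interaction past the threshold. Of the 8 stress markers 4 had an interaction past the threshold in the same libraries, against 0.775% of all genes tested. Their part in the result of GCG1 was not tested.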

How the results depend on the processing

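Of the 10 genes, 1 passed at 72 hr, 1 at 48 hr and 2 on average under both other pseudocounts, both other filters, median-of-ratios scaling and the 6 libraries of 1 age, and none in the age comparisons and the interaction. The averaged calls were also 2 whichever library was left out. With 1 library left out the count was 0 to 1 at 72 hr, where reduced replicate 2 decided it, and 0 to 1 at 48 hr, where 5 of 6 libraries did. Differences that did not pass changed sign with single libraries: at 72 hr GSH2 ran from -0.13 to 0.31, GRX4 from -0.57 to 0.019 and GRX5 from -0.47 to 0.53; at 48 hr GLR1 ran from -0.12 to 0.20 and GTT2 from -0.59 to 0.38. The averaged difference of GSH1 ran from -0.13 to 0.066 and was 0.027 under median-of-ratios scaling. The age difference of GTT2 in reduced cells ran from -0.78 to 0.0098, and the interactions of GLR1 and GRX3 from -0.054 to 0.29 and from -0.024 to 0.64. Median-of-ratios scaling moved the median of all genes at 72 hr to -0.04, against -0.11 without it. Same-numbered libraries of an age hardly deviated together (correlations of -0.03 to 0.02 over 6 pairs). The 6 of 12 libraries closest to their own number were all of 48 hr, where same-numbered pairs correlated at 0.009 to 0.020. At 72 hr such pairs correlated at -0.027 to -0.0025. With the replicate block 1 gene passed at 72 hr, 1 at 48 hr, 2 on average and 0 in the age comparisons and the interaction. Depth limits the low genes most: GRX3, GRX4 and GTT2 had 107 to 123 reads in all 12 libraries together. Replicates are repeated sorts. The limma p-values measure the spread between them, drawn for each gene towards a trend over all genes tested. That trend held 45.1 of the 53.1 degrees of freedom, so a gene with widely spread replicates can have a small SE.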
